A study of Mus musculus with 7 samples.

Results

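The proximal ends of the mouse autosomes, the first 2 Mb of assembled sequence next to each centromere, carried 691 of the 23190 H3K9me3 peaks of WT cells and 190 of the 3775 peaks of Setdb1 KO cells, which is 881 of 26965 peaks in all. Peaks were taken by position alone, as every row on chromosomes 1 to 19 of mm9 that starts below position 5000000, where the assembled sequence of each autosome begins at 3000000. The ends hold 37.9 Mb of sequenced bases, or 1.58% of the autosomes, with 2.98% of the WT and 5.03% of the KO peaks. H3K9me3, the repressive trimethyl mark on histone H3 lysine 9, was mapped by ChIP-seq (sequencing of immunoprecipitated chromatin) in Setdb1 cKO iMEFs, immortalised mouse embryonic fibroblasts in which 4-hydroxytamoxifen (4OHT) deletes Setdb1. WT cells were the untreated line, and KO cells were the same line given 4OHT for 4 days and harvested on day 7. The line was recloned from a single cell, so both libraries stand for 1 clone, and the lists hold no measure of the deletion itself. With 1 library per group no difference could be tested, and all values below describe these libraries. The 5 other samples of the 7 in the series (fetal forebrain and input) entered no comparison.

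Mouse autosomes have their centromere at one end, and the assembled sequence starts only after the megabases of satellite DNA that build it. In mouse cells the pericentric major satellite is the best-known site of H3K9me3 made by the methyltransferases Suv39h1 and Suv39h2, whereas Setdb1 places the mark mainly at endogenous retroviruses and at single genes on chromosome arms. The assembled ends lie between those regions, with blocks of tandem repeats followed by ordinary chromosome arm. A pileup in the values below is the number of fragments over the summit of a peak, the local background is the number the peak caller set against it, and the fold enrichment is the ratio of both after adding 1 to each. A WT peak is called retained if at least 1 bp of it lies in a KO peak, and KO-only stands for KO peaks that lie clear of every WT peak. Reads that fit several places had been put at 1 of them by chance. A value in a repeat array is therefore shared only among those copies that a read cannot tell apart.

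The repeats that carry most of the shared peaks are shown first, because the results below turn on them. On chromosomes 3, 4, 16 and 17, arrays of a 21 bp unit begin within 232 kb of the first assembled base. The commonest unit, on the strand given below, was:
21 bp unit: gagcactgtgacaccacagtg
Runs of 5 units from each array follow, each overlapping a peak of at least 1 list, with capitals for bases that differ from the commonest unit.
chr3:3001747-3001851, plus strand: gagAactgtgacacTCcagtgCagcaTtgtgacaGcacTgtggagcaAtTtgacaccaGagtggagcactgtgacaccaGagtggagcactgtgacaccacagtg
chr4:3009256-3009360, plus strand: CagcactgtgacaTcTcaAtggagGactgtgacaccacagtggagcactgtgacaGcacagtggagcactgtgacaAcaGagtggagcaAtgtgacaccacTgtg
chr16:3236162-3236266, minus strand: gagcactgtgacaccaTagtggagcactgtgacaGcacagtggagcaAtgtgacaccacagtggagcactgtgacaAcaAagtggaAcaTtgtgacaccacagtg
chr17:3029897-3030001, minus strand: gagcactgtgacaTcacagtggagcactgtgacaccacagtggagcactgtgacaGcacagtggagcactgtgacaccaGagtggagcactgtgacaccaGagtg
The runs on chromosomes 3, 4, 16 and 17 differ from the unit at 11, 10, 7 and 4 bases. The run on chromosome 3 overlaps a retained WT peak of pileup 72 and a KO peak of pileup 65. The run on chromosome 4 overlaps a retained WT peak of pileup 58 and a KO peak of pileup 53. The run on chromosome 17 lies inside a retained WT peak with a pileup of 109, against 98 in the KO peak over it. The run on chromosome 16 holds a KO peak of pileup 82 and no WT peak. All 4 arrays carried peaks of both lists. Each run is the stretch of its array with the fewest differences from 5 copies of the unit in a row. Peak values did not enter that choice. The run from chromosome 16 also holds the KO-only peak with the highest −log10 q.

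Another short unit, of 22 bp, is shown because its arrays held at most 2 KO peaks each.
22 bp unit: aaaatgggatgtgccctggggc
chr4:3105285-3105394, plus strand: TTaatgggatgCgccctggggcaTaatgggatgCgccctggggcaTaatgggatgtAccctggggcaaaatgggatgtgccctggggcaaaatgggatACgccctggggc
chr6:3085239-3085348, plus strand: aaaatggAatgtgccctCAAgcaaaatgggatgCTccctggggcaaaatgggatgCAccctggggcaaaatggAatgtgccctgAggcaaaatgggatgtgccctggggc
Capitals again mark differences from the commonest unit, 9 on chromosome 4 and 10 on chromosome 6. Neither of these runs lies under a peak, although both arrays held WT peaks elsewhere. Chromosome 6 was chosen after its values were seen.

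The end of chromosome 9 begins with an array of a 234 bp unit, the unit length known for the mouse major satellite. No satellite reference was used here, so the name rests on that length alone. The 3 neighbouring units below lie in 1 WT peak of pileup 140 and 1 KO peak of pileup 130, and capitals mark bases that differ from the majority of the 3.
chr9:3032076-3032309, plus strand: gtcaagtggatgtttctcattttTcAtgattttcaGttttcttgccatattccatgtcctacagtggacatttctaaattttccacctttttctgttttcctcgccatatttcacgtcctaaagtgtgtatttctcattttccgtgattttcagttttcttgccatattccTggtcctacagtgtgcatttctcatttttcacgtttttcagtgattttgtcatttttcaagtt
chr9:3032310-3032543, plus strand: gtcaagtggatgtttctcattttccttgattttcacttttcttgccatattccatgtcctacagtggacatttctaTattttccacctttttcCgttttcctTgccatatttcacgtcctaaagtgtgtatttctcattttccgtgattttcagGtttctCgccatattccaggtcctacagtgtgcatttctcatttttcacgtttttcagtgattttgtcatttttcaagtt
chr9:3032544-3032777, plus strand: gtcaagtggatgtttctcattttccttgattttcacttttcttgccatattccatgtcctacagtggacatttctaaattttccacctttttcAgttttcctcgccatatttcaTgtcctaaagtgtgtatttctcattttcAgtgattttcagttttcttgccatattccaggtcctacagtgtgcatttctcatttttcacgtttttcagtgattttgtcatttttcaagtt
These units were 96.2% to 97.0% identical to each other. The first peaks of chromosome 11 lay in a looser relative of this array, of which 2 neighbouring stretches of 117 bp are shown with capitals where they differ from each other.
chr11:3000356-3000472, plus strand: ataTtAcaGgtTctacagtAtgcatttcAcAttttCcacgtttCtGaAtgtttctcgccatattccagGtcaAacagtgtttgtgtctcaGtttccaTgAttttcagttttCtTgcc
chr11:3000473-3000589, plus strand: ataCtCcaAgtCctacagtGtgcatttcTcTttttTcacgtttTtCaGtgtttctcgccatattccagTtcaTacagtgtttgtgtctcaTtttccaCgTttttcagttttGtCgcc
Both stretches lie in a retained WT peak with a pileup of 130 and overlap a KO peak with a pileup of 119. They were 84.6% identical, with 18 differing bases. In windows of 58 bp, the chromosome 11 sequence at chr11:3000025-3004779 matched the majority unit of chromosome 9 at a median of 74.1% of bases, with 93.7% of its windows at 60% or more. The next stretch of the same length matched at 44.8%, with 0% of windows at that level, and the 21 bp array of chromosome 3 matched at 43.1%. The chromosome 9 array itself matched at 94.8%.

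Peaks were denser in the ends than in the rest of the autosomes in both lists. The WT list had 18.2 peaks per Mb in the ends and 9.03 in the rest, a ratio of 2.02 (95% interval 1.87 to 2.18). The KO list had 5.02 peaks per Mb in the ends and 1.48 in the rest, a ratio of 3.40 (2.94 to 3.93). Intervals of density ratios cover counting error only and treat each peak as independent, which neighbouring peaks of an array are not. With peaks within 1 kb merged, the ratios were 1.72 in WT and 2.36 in KO, both below these intervals. Without chromosomes 4, 9, 11 and 17 the ratios were 1.92 in WT and 1.90 in KO, so the larger KO ratio rests on those 4 ends. They were chosen after the data were seen, as the ends with the most retained WT peaks. Since they held 56.8% of the KO and 26.8% of the WT peaks, leaving them out was bound to lower the KO ratio more. Over all 19 autosomes, the KO number was 27.5% of the WT number in the ends and 16.4% in the rest. Peaks covered 180.1 kb of the ends in WT and 34.8 kb in KO, so that the covered KO length was 19.3% of the WT length, against 9.09% in the rest. The other end of the autosomes did not stand out in this way, since the last 2 Mb had 10.2 WT and 1.69 KO peaks per Mb.

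Most of this excess lay in the first 250 kb, as the plot of peaks by distance shows. In steps of 250 kb, the WT peaks numbered 262, 68, 48, 60, 76, 56, 74 and 47. The KO peaks numbered 134, 6, 3, 9, 7, 10, 11 and 10. After the first step neither list showed a steady fall with distance. The first 250 kb made up 0.196% of the autosomes and had 55.8 WT and 28.5 KO peaks per Mb, which was 6.18 and 19.3 times the density of the rest. The remaining 1.75 Mb of the ends had 12.9 WT and 1.69 KO peaks per Mb, ratios of 1.43 (1.30 to 1.58) and 1.14 (0.879 to 1.49), and the KO interval includes 1. For the WT list this was close to the 12 peaks per Mb of the next 5 Mb, where the KO list had 1.31.

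Within the first step, the peaks crowded against the start of the sequence. The first 50 kb held 150 WT peaks, 21.7% of those in the ends, and 109 KO peaks, 57.4%. Over the first 40 kb, steps of 10 kb held 50, 41, 34 and 17 WT peaks and 32, 37, 24 and 15 KO peaks, and the next 10 kb held 8 and 1. The KO number was 51.1% of the WT number in the first 250 kb and 13.1% in the remaining 1.75 Mb, so the higher KO share of the ends came from the first step.

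**Figure D1:**
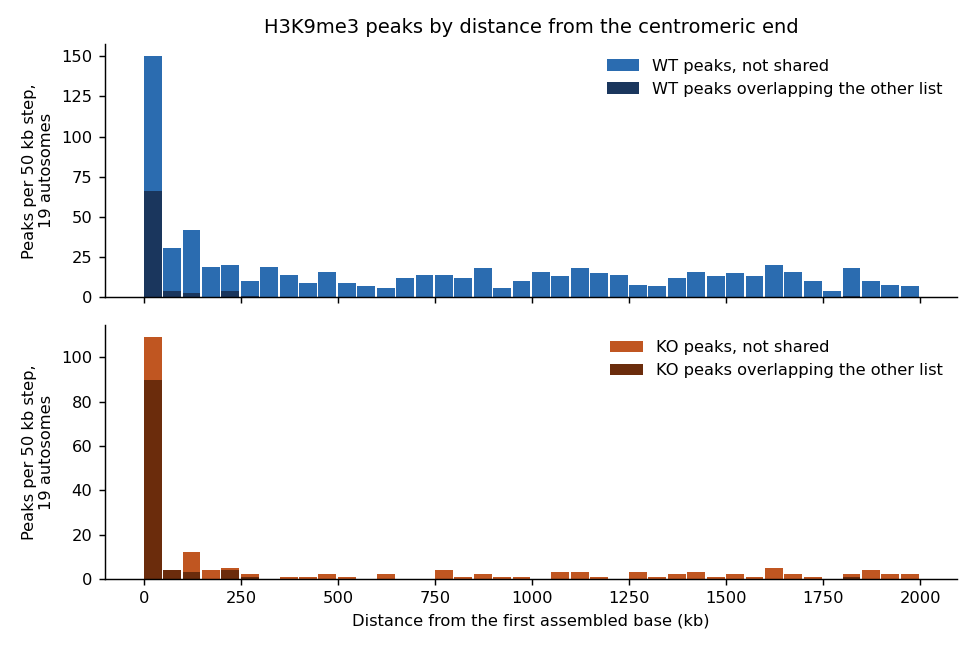
Number of WT (top) and KO (bottom) H3K9me3 peaks per 50 kb step of distance from the first assembled base, summed over 19 autosomes, with peaks that overlap the other list in the darker shade. The first step held 150 WT and 109 KO peaks, and nearly all overlapping peaks lay within the first 250 kb.

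The lists also overlapped more in the ends than elsewhere. Of the 691 WT peaks, 79 (11.4%, 95% Wilson interval 9.27 to 14.0) were retained, against 2.42% of the whole WT list and 433 of 21266 (2.04%, 1.85 to 2.23) in the rest of the autosomes. Of the 190 KO peaks, 103 (54.2%, 47.1 to 61.1) overlapped a WT peak, against 16.1% of the whole KO list and 452 of 3478 (13.0%, 11.9 to 14.2) in the rest. These intervals cover counting error only, and neighbouring peaks of an array share their sequence and are not independent. Of the 103 shared KO peaks, 43 lay in the chromosome 9 array. WT peaks covered 91.4% of that array, so overlap was nearly fixed in advance there. With 1.58% of the autosomes, the ends held 14.1% of all retained WT peaks and 16.9% of all shared KO peaks. Counted in bases, 25.1 kb were shared, 13.9% of the WT and 72.1% of the KO length, against 1.51% and 16.7% in the rest.

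Overlap was nearly confined to the first 250 kb, with the exceptions named here. In that step 77 of 262 WT peaks (29.4%, 24.2 to 35.2) were retained and 101 of 134 KO peaks (75.4%, 67.4 to 81.9) were shared. In the remaining 1.75 Mb, 2 of 429 WT peaks (0.466%, 0.128 to 1.68) were retained and 2 of 56 KO peaks (3.57%, 0.985 to 12.1) were shared. One of these pairs was on chromosome 2, where the WT peak at chr2:3295931-3296013 had a pileup of 41 and the KO peak at chr2:3295930-3296006 one of 45. The other was on chromosome 8, where the WT peak at chr8:4848395-4848587 had a pileup of 10 and the KO peak at chr8:4848321-4848440 one of 13. Away from the first step, the retained share of the ends was thus below the 2.04% of the rest of the autosomes, and its interval did not reach that value. This share rests on 2 retained peaks. Its interval overlaps those of the next 5 Mb (1.59%, 1.01 to 2.51) and of the last 2 Mb of the autosomes (1.55%, 0.712 to 3.34).

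Chromosomes differed widely. WT peaks per end ranged from 9 on chromosome 12 to 66 on chromosome 3, with a median of 34. KO peaks per end ranged from 0 on chromosome 12 to 48 on chromosome 9, with a median of 7. Chromosome 9 alone held 25.3% of the KO peaks of the ends, followed by chromosomes 17 (24 peaks, 12.6%), 11 (21, 11.1%), 4 (15, 7.89%), 16 (12, 6.32%), 3 (11, 5.79%) and 18 (10, 5.26%). The higher density was common to most WT ends but to fewer KO ends. In WT, 17 of 19 ends were denser than the rest of their own chromosome, and 15 of 19 still were without their first 250 kb. In KO the numbers were 12 and 10 of 19. All 19 ends had a WT peak in the first 250 kb, and 5 had no KO peak there.

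The retained peaks were concentrated on 4 chromosomes. Chromosome 11 retained 16 of 32 WT peaks (50%), chromosome 9 retained 26 of 63 (41.3%), chromosome 17 retained 12 of 45 (26.7%) and chromosome 4 retained 9 of 45 (20%). These 4 ends held 63 of the 79 retained peaks (79.7%) and 108 of the 190 KO peaks (56.8%), but 185 of the 691 WT peaks (26.8%). Lower shares were found on chromosomes 3 (7 of 66, 10.6%), 16 (4 of 39, 10.3%) and 18 (2 of 42, 4.76%), and chromosomes 2, 8 and 10 retained 1 peak each. On the other 9 chromosomes 0 of 220 WT peaks were retained, which allows a share of up to 1.36%, and the KO list had 27 peaks there. Without chromosomes 4, 9, 11 and 17, the retained share was 3.16% and the shared KO share 19.5%. Without chromosome 9 alone, the KO density ratio fell to 2.63, the retained share to 8.44% and the shared KO share to 42.3%.

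On chromosomes 9, 11 and 17 the KO list was also longest relative to the WT list. The KO number was 76.2% of the WT number on chromosome 9, 65.6% on chromosome 11 and 53.3% on chromosome 17, against 4.35% on chromosome 7 and 0 on chromosome 12. On chromosome 17, 12 of the 24 KO peaks were shared, so these numbers do not count peaks that persisted. In the first 250 kb of chromosome 9 the KO list had 44 peaks and the WT list 40. That higher number did not mean more marked sequence, because single WT peaks there were wide and spanned several KO peaks, as described with the array below.

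**Figure D2:**
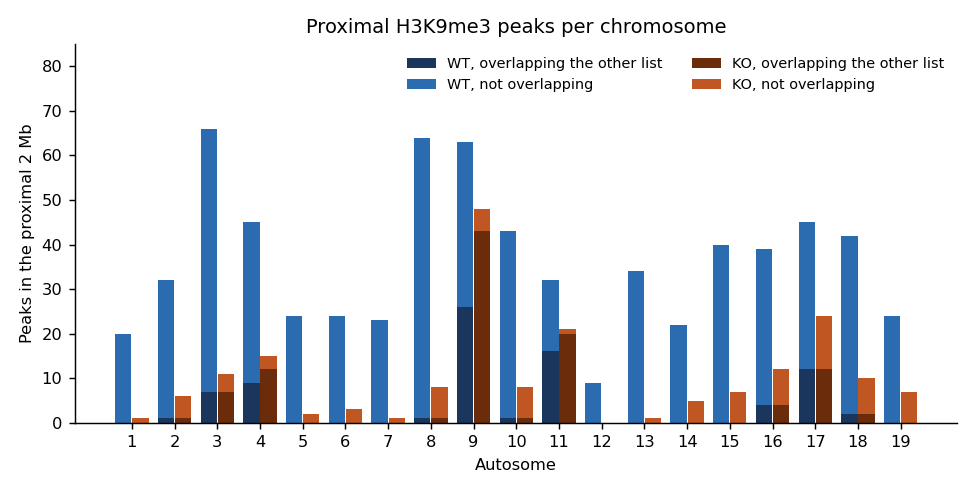
Number of peaks in the proximal 2 Mb of each autosome, WT in blue and KO in orange, with the peaks that overlap the other list in the darker shade at the base of each bar. Chromosomes 9, 11, 17 and 4 held 63 of the 79 retained WT peaks, while chromosome 12 had 9 WT peaks and 0 KO peaks.

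Shared peaks stood on a high local background, which in the plot of background by distance is seen only near the start of the sequence. The median background in the ends was 1.31 fragments in WT and 7.43 in KO, against 1.21 and 1.07 in the rest. In the first 250 kb it was 3.94 in WT and 15.4 in KO, with maxima of 90.7 and 83.1. In the remaining 1.75 Mb it was 1.18 and 1.08, with maxima of 9.86 and 6.99. A background above 10 fragments was held by 76 of 691 WT peaks (11%) and 82 of 190 KO peaks (43.2%) of the ends, against 0.724% and 4.00% in the rest. All of those in the ends lay in the first 250 kb. The ends thus supplied 76 of the 273 such peaks in the WT list and 82 of the 250 in the KO list. The part of this background in the overlap of the lists was not tested.

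**Figure D3:**
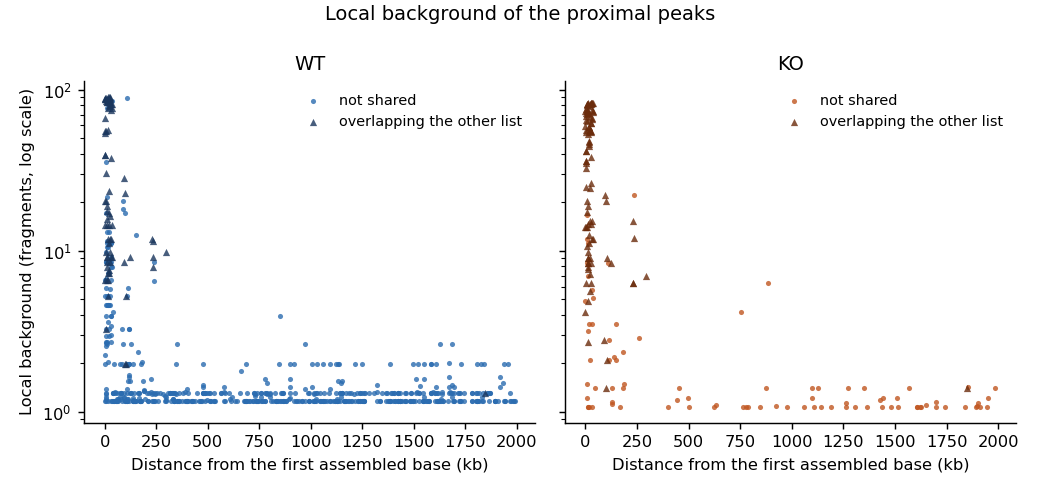
Local background of each proximal peak, in fragments on a log scale, against its distance from the first assembled base in kb, for WT (left) and KO (right), with triangles for peaks that overlap the other list. Backgrounds above 10 fragments and nearly all triangles lay within the first 250 kb.

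Retained peaks were higher and wider but less enriched over their surroundings than lost ones. The 79 retained WT peaks had a median pileup of 58, width of 279 bp, background of 17.8 and fold enrichment of 3.12. The 612 lost WT peaks had a median pileup of 10, width of 138.5 bp, background of 1.31 and fold enrichment of 4.63. The 103 shared KO peaks had a median pileup of 94, width of 195 bp and background of 38.4. The 87 KO-only peaks had medians of 10, 82 bp and 1.18, against 9, 80 bp and 1.07 for the 3026 KO-only peaks of the rest. Of the 87, 22 (25.3%) lay within 1 kb of a WT peak, against 16.3% in the rest.

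At a given background, the first 250 kb and the rest of the autosomes were closer to each other than in all. Of WT peaks with a background of at most 1.5 fragments, 0 of 89 in the first 250 kb were retained, which allows a share of up to 3.37%, and 161 of 18356 (0.877%) in the rest. Between 1.5 and 3 fragments, 2 of 33 (6.06%) were retained, against 3.25% of 2213 in the rest. Between 3 and 10 fragments the shares were 22 of 64 (34.4%, 23.9 to 46.6) and 106 of 543 (19.5%, 16.4 to 23.1). Above 10 fragments they were 53 of 76 (69.7%, 58.7 to 78.9) and 94 of 154 (61.0%, 53.2 to 68.4), with intervals that overlap. The intervals in the class of 3 to 10 fragments do not overlap. Among KO peaks, the intervals overlap neither between 3 and 10 fragments nor in the highest class. Between 3 and 10 fragments, 19 of 29 (65.5%, 47.3 to 80.1) were shared in the first 250 kb and 97 of 348 (27.9%, 23.4 to 32.8) in the rest. In the highest class, 78 of 82 (95.1%, 88.1 to 98.1) were shared in the first 250 kb and 93 of 139 (66.9%, 58.7 to 74.2) in the rest. As above, neighbouring peaks of an array are not independent. The highest KO class includes all KO peaks of the chromosome 9 array, whose overlap was nearly fixed in advance. With both lists limited to a background of at most 1.5 fragments, 0.212% of the WT peaks of the ends were retained and 1.52% of the KO peaks shared. With only a peak's own list so limited, 1 of 471 WT and 2 of 66 KO peaks (3.03%, 0.835 to 10.4) of the ends overlapped. In the rest, such shares were low too, at 0.877% of WT and 7.49% (206 of 2749) of KO peaks.

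Peaks of the ends lay in tandem repeats far more often than those of the rest. A peak was called tandem if the 5 kb around it matched itself at 50% of bases or more at some shift from 10 to 500 bp. By this measure 123 of 691 WT peaks (17.8%) and 86 of 190 KO peaks (45.3%) of the ends were tandem, against 0.719% and 0.805% in the rest. GC content differed by little. Its median was 38.2% in WT and 37.2% in KO, against 38.0% and 37.1% in the rest. The median number of genome copies of the 31-base words in a peak was 7 in WT and 2 in KO, against 24.5 and 1 in the rest. Words with over 1000 copies are in the range of interspersed repeat families. WT peaks with such words were retained in 0 of 30 cases in the first 250 kb, which allows a share of up to 10%. In the rest the share was 0.547% (40 of 7311). Those with single-copy words were retained in 37 of 116 cases (31.9%) in the first 250 kb and 117 of 6262 (1.87%) in the rest. Of those 116, 71 were tandem, so this contrast is not one of copy number alone.

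In the first 250 kb, 56 of 123 tandem WT peaks (45.5%, 37.0 to 54.3) and 21 of 139 other peaks (15.1%) were retained, and 15 of the latter lay on chromosome 11. Tandem WT peaks in the rest of the autosomes were retained in 21 of 153 cases (13.7%). Of tandem KO peaks, 75 of 85 (88.2%) in the first 250 kb and 25 of 28 (89.3%) in the rest were shared. The tandem peaks of the ends fell into 10 blocks on 9 chromosomes with 133 kb in all, 0.351% of the length of the ends. These blocks held 125 WT peaks (18.1%), 56 of the 79 retained WT peaks (70.9%), 88 KO peaks (46.3%) and 76 of the 103 shared KO peaks (73.8%).

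The plot of self-match gives the regularity of each array. The 21 bp arrays matched themselves at 58.4% to 66.0% of bases at a shift of 21 bp, with lower peaks at 42 and 63 bp. The 22 bp array of chromosome 4 matched at 71.7%, and that of chromosome 6 at 46.5%. That of chromosome 18 was left out of this plot. The chromosome 9 array matched at 71.3% at 234 bp, 59.2% at 468 bp and 56.3% at 58 bp. The first sequence of chromosome 11 matched at 49.6% at 59 bp and 48.9% at 117 bp. Since arrays were grouped by their best shift, the shared maximum within a group follows from the grouping.

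**Figure D4:**
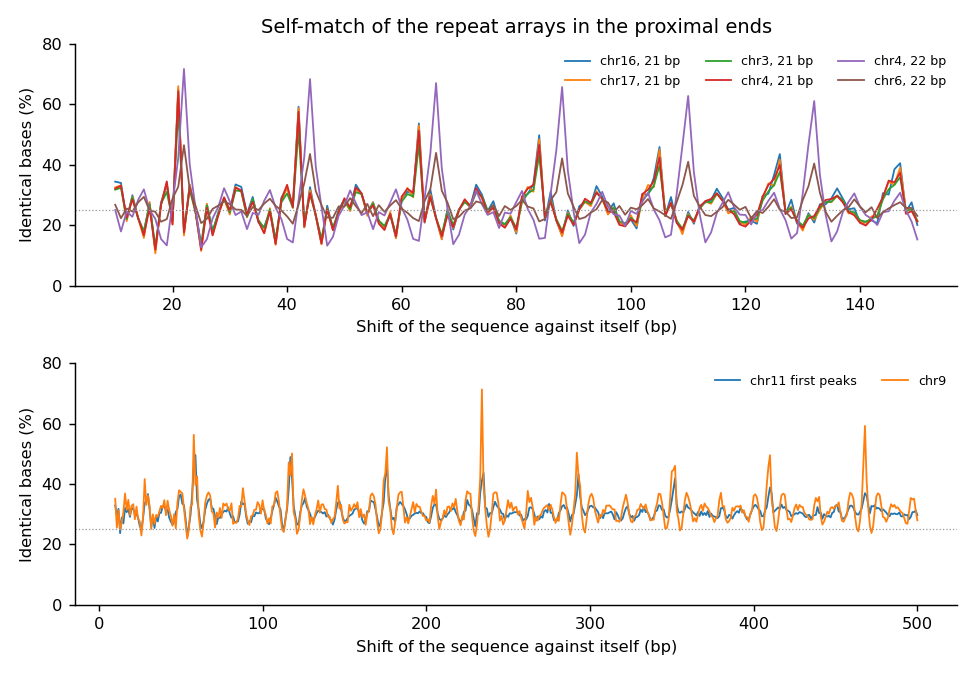
Percent of bases identical when the sequence of an array is shifted against itself, by shift in bp, for arrays of 21 and 22 bp units (top) and for the arrays of chromosomes 9 and 11 (bottom), with a dotted line at 25%. The 22 bp array of chromosome 18 is not drawn. The 21 bp arrays of 4 chromosomes had maxima at the same shifts of 21, 42 and 63 bp, and the chromosome 9 array had its maximum of 71.3% at 234 bp.

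The 21 bp unit was largely a sequence of the ends. Allowing 3 mismatches on either strand, 2499 copies were found on the autosomes, of which 1915 (76.6%) lay in the ends of 5 chromosomes. Chromosome 17 had 869, chromosome 3 had 610, chromosome 16 had 253, chromosome 4 had 177 and chromosome 19 had 6. Most of the others, 447 of 584, were on chromosome 7 outside its end. Each block had a main strand. In the blocks of chromosomes 3 and 4, 578 of the copies and 141 lay on the plus strand against 4 and 0 on the minus strand. On chromosome 16, 219 lay on the minus strand and 0 on the plus strand, and on chromosome 17 the numbers were 743 and 59. The copies in the ends were under a WT peak in 464 of 1915 cases (24.2%, 22.4 to 26.2) and under a KO peak in 182 (9.50%, 8.27 to 10.9). The 584 copies elsewhere were under a WT peak in 47 cases (8.05%, 6.11 to 10.5) and under a KO peak in 8 (1.37%, 0.696 to 2.68). The unit was taken from blocks found through peaks in the ends, so these shares describe the copies and do not compare the ends with other places.

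The 21 bp arrays differed in how much they held and kept. At chr17:3006826-3036857 there were 26 WT peaks, 12 of them retained, over 4.27 kb, and 18 KO peaks, 12 of them shared, over 2.33 kb. At chr3:3000220-3032365, of nearly the same length, there were 35 WT peaks over 5.00 kb, 6 of them retained, but 8 KO peaks over 0.675 kb. The median background was 9.53 in WT and 11.9 in KO on chromosome 17, and 3.94 and 5.24 on chromosome 3. At chr4:3007231-3012788, 5 of 10 WT peaks were retained and 5 of 5 KO peaks were shared, with backgrounds of 10.2 and 9.08. At chr16:3231598-3240477, 4 of 5 WT and 4 of 5 KO peaks overlapped, with backgrounds of 9.20 and 12 fragments. The array of chromosome 3 had the lowest WT background and the smallest retained share of the 4. Among the others the order differed, since chromosome 16, at 9.20, retained 4 of 5 and chromosome 4, at 10.2, retained 5 of 10. A link between background and retention was not tested. The assembly has gaps of 760 bases in the block of chromosome 3 and 987 in that of chromosome 17. In each of the 4 arrays, the 31-base words of the median peak had 1 genome copy in both lists. In the chromosome 9 array these medians were 15 copies in WT and 17 in KO.

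The 22 bp arrays held few peaks. At chr4:3103331-3109171, 2 of 6 WT peaks were retained and both KO peaks were shared, with median backgrounds of 1.68 and 5.59. The array of chromosome 6 at chr6:3083931-3088031 had 3 WT and 0 KO peaks. Within 3 mismatches 881 copies of this unit were found, 466 of them (52.9%) in the ends. The copies in the ends were under a WT peak in 90 cases (19.3%) and under a KO peak in 17 (3.65%, 2.29 to 5.76). The 415 copies elsewhere were under a WT peak in 26 cases (6.27%) and under a KO peak in 11 (2.65%, 1.49 to 4.68), so that the KO intervals overlap. This unit too was taken from blocks in the ends. On chromosome 18 another array of 22 bp units held 7 WT and 2 KO peaks, none of which overlapped. It did not enter the choice of the unit. The median self-match around its peaks was 72.8%, against 67.0% on chromosome 4 and 61.9% on chromosome 6.

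The chromosome 9 array was covered almost throughout in WT and in part in KO. At chr9:3000033-3038311, 32 WT peaks covered 35.0 kb (91.4%) and 43 KO peaks covered 15.1 kb (39.5%). Of the WT peaks 26 were retained, and all 43 KO peaks were shared. With 91.4% of the array under WT peaks, a KO peak in it was nearly bound to overlap one. The shared count of this array therefore says little about overlap. The median pileup was 140 in WT and 129 in KO over median backgrounds of 85.5 and 72.0, so the fold enrichment was only 1.63 and 1.75. Peaks with a 234 bp period numbered 32 in WT and 43 in KO in the ends and 0 in the rest of the autosomes. On chromosome 11, the block at chr11:3000929-3002558 was 1 WT peak with a background of 39.4 and held 4 KO peaks with a median background of 39.1.

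Pileups in the chromosome 9 array stood at an upper limit. The highest pileup was 140 in the WT list and 130 in the KO list, each equal to 2 times the narrowest peak of that list with both end bases counted (70 and 65 bp). In WT 31 of the 42 peaks at that value lay in the end of chromosome 9, and in KO 18 of 24. With duplicate reads removed, each start position can count once per strand, but whether this set the limit was not tested. Differences between WT and KO within this array can therefore not be read from the pileup.

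Where peaks of both lists met, the KO peaks were somewhat lower and narrower. The overlaps formed 103 pairs from 79 WT peaks, and the KO pileup was lower in 93, with a median ratio of 0.903. In 42 of the pairs the WT peak stood at 140, above the highest KO pileup of 130, so a lower KO value was fixed in advance. Among the 61 pairs with neither peak at the upper limit, the median ratio was 0.872 (range 0.466 to 1.30) and the KO pileup was lower in 51. The background of these pairs had a median ratio of 0.976, and the fold enrichment one of 0.932 and was lower in 39. The KO peak was narrower in 58, with a median width ratio of 0.719. The lowest background of each list, 1.16 in WT and 1.07 in KO, had a ratio of 0.921, the one measure of scale between the lists. With 1 library each, the pileup ratio of 0.872 cannot be told apart from a difference in scale.

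In the plot of paired pileups, the 21 bp arrays and chromosome 11 had similar median ratios. The 27 pairs of the 21 bp arrays had a median pileup ratio of 0.899, with the KO value lower in 22, and a width ratio of 0.779. The 20 pairs of chromosome 11 had a ratio of 0.857. The 43 pairs of chromosome 9 had a background ratio of 0.842 and a width ratio of 0.208. They came from 26 WT peaks, so a wide WT peak enters again for each KO peak inside it, which lowers the width ratio. With pileups at the upper limit, the kind of difference there cannot be told from these ratios. Both members of a pair come from 1 library each, and these ratios have no replicate error.

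**Figure D5:**
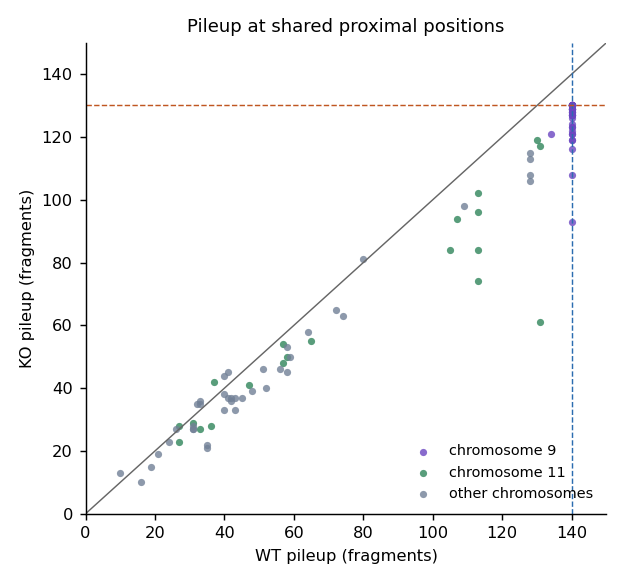
KO pileup against WT pileup, in fragments, for the 103 pairs of overlapping proximal peaks, with the line of equal values and dashed lines at the highest pileup of each list (140 in WT and 130 in KO). In 93 pairs the KO value was lower, among them 42 pairs whose WT peak stood at 140, above every KO pileup. The chromosome 9 pairs had WT pileups of 134 to 140 and KO pileups of 93 to 130.

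Single peaks with the highest significance show the range of these outcomes. They were the 3 with the highest −log10 q among the retained, the lost and the KO-only peaks, and none lay in an annotated gene. Among retained WT peaks, chr17:3027018-3027253 in the 21 bp array had a pileup of 80, a fold enrichment of 4.65 and a −log10 q of 23.3, and its KO peak had a pileup of 81 and a fold enrichment of 2.98. The retained peak at chr11:3004310-3004779, in the relative of the chromosome 9 unit, had a pileup of 107 and a −log10 q of 21.3, with 94 fragments in KO. The one at chr4:3104045-3104211 in the 22 bp array had a pileup of 43, a fold enrichment of 7.03 and a −log10 q of 19.2.

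Of the lost WT peaks, the strongest was at chr15:4230364-4230463, with a pileup of 26 over a background of 1.16, a fold enrichment of 12.5 and a −log10 q of 20.9. Its 31-base words had a median of 5347 copies in the genome, and it lay 1230 kb from the first base. The next strongest were both in the 21 bp array of chromosome 17, at chr17:3023020-3023095 (pileup 65, −log10 q 18.8) and chr17:3036183-3036476 (pileup 46, −log10 q 15.1). The same array that held 12 retained peaks therefore also held strong peaks with no KO counterpart.

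The KO-only peaks led with chr16:3236195-3236264, inside the run printed above, with a pileup of 82, a background of 22.4 and a −log10 q of 17.1. The others were chr17:3010932-3010997 (pileup 46, −log10 q 10.5) and chr17:3010229-3010612 (pileup 45, −log10 q 9.05). All 3 lay in 21 bp arrays, over backgrounds of 11.2 to 22.4. A KO-only call says that no WT peak was listed there, not that WT had no fragments.

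KO peaks of the ends lay in promoters and exons more often than those of the rest of the autosomes. Gene bodies held 22.1% of the WT and 32.6% of the KO peaks, against 24.5% and 29.4% in the rest. Exons held 3.76% and 11.1%, against 2.63% and 2.96%. Promoters, from 2 kb upstream to 0.5 kb downstream of a transcript start, held 5.64% of the WT peaks and 16.8% (12.2 to 22.8) of the KO peaks, against 3.91% and 5.81% (5.08 to 6.64) in the rest. Of the KO promoter peaks 31 lay in the first 250 kb, 23.1% of the KO peaks there, and 1 in the remaining 1.75 Mb. Of the KO exon peaks 17 lay in the first 250 kb and 4 in the remaining 1.75 Mb. The chromosome 9 array holds 12 predicted genes, named below, and all but Gm10718 had a KO peak in an exon. The KO exon share of the ends thus rests largely on that array, and its part in the promoter share is not given here. In total 473 protein-coding genes began in the ends, of which 60 (12.7%) held a WT peak, 26 a KO peak and 13 a retained peak. The share over all autosomal protein-coding genes is not given here. These counts, and those of the gene families below, therefore carry no comparison with the rest.

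Of the 26 genes with a KO peak, 12 were predicted genes drawn inside the chromosome 9 array. They were Gm10722, Gm11168, Gm10721, Gm10720, Gm10719, Gm11167, Gm10718, Gm10717, Gm10716, Gm10106, Gm17535 and Gm10715, and each held a retained peak. All 12 share the sequence of the array and reads can fall on any of them, so they are not separate findings. The noncoding gene Gm16869 (chr9:3000282-3038313, minus strand) spans the array and held 32 WT and 43 KO peaks.

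Outside the array, Drg1 was the only gene of the 14 others with a KO peak that also had a retained one. Drg1 encodes a GTP-binding protein of the developmentally regulated family and lies at chr11:3087363-3166418. It held 5 WT peaks, 2 of them retained, and 2 KO peaks, both shared and none in an exon. The median background was 20.4 in WT and 21.3 in KO, with pileups of up to 57 and 54. Drg1 thus carried the high background of the first 250 kb rather than that of the other named genes. Genes left out by the naming rule carried it too. Sfi1, which overlaps Drg1, had 2 WT peaks with a median background of 19.3. Gm12735, inside Drg1, had 1 WT peak with a background of 28.3, which was retained. The high background therefore belongs to this stretch of chromosome 11 and not to Drg1 alone. In the 26 other named genes outside the array the background reached 3.94 in WT and 4.19 in KO, and the WT pileup at most 19.

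The other 13 genes with a KO peak had 0 to 7 WT peaks each and no overlap of the lists. Oprm1, the mu opioid receptor gene, had 7 WT peaks and 1 KO peak. Gria4, a glutamate receptor subunit gene, had 6 and 1. Gucy1a2, a subunit gene of soluble guanylate cyclase, had 5 and 2, and Rgs17, a regulator of G protein signalling, had 5 and 2. Sox17, an endoderm transcription factor gene, had 2 and 1, with the KO peak in an exon at a pileup of 12. The uncharacterised 4930433N12Rik had 7 and 1, Gm2974 4 and 1, Ipcef1 3 and 1, and Pira5, of the paired immunoglobulin-like receptors, 2 and 1. Ankib1 and Heatr7b2 had 1 of each, and Gm8159 and Gm3264 had 1 KO peak and 0 WT peaks. Oprm1 and Ipcef1 overlap on chromosome 10 and share peaks.

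In 13 genes with 3 or more WT peaks the KO list had 0. Ptprh, a receptor tyrosine phosphatase gene, had 6 WT peaks, and Lair1, an inhibitory receptor of immune cells, had 4, both on chromosome 7. Syne1, which encodes a nuclear envelope spectrin-repeat protein, and Gm3002 had 4 each. Xkr4, Hormad2 (a meiotic chromosome axis protein), Plcxd3, C6 (a complement component), Pcx (pyruvate carboxylase), 4930556J24Rik, Gm10340, Gm5796 and Gm8108 had 3 each. Gm2974, Gm5796 and Gm8108 overlap and share peaks. Of gene families, 10 Zfp genes began in the ends and 1 of them, Zfp958 (chr8:4625840-4629380), held 2 WT and 0 KO peaks. The 2 Olfr and 3 Vmn genes held none, and 0 Pcdh genes began there.

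At the limit of 5000000 the WT list showed little change in number, while the KO list had fewer peaks outside. The last 250 kb inside it held 47 WT and 10 KO peaks, and the first 250 kb outside 42 and 3. The nearest WT peaks were chr2:4990508-4990596 inside (pileup 9, −log10 q 2.70) and chr4:5018680-5018760 outside (pileup 10, −log10 q 3.45). The nearest KO peaks were chr13:4984883-4984964 inside (pileup 10, −log10 q 2.87) and chr8:5041942-5042132 outside (pileup 9, −log10 q 2.96). All 4 stood at or near the lowest pileup of 9 that either list held.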

How the data were processed

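H3K9me3 libraries of WT and KO iMEFs were compared through their 2 peak lists. Native chromatin had been digested with micrococcal nuclease and precipitated with a polyclonal antibody. Single-end reads were mapped to mm9 (Bowtie2 2.2.3 per the submitters' processing notes), a read with several hits was placed at 1 of them by chance, and Picard removed duplicates. Peaks were called by the authors per library (MACS2 2.1.0.20140616, per the submitters' notes); the caller's options and its use of input are not given in the sources used here. The deposited pileup is a coverage signal, in fragments at the summit. Fold enrichment, as deposited, is a ratio of pileup to local background, and the deposited significance is −log10 of a p-value and of a q-value. Library totals are not part of the lists, so depth is known only through them. Whether starts count from 0 or 1 is not stated, which leaves 1 bp of uncertainty.

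Local background was recovered as (pileup + 1) / fold − 1, and width as end minus start. Genes and 95495 transcript starts were those of GENCODE M1 (NCBIM37, equal to mm9), and sequences were of that build. Copy number is the median count in the assembly of the 31-mers of a peak. Density used sequenced bases only. Overlap of 1 bp counted as shared. Shares carry 95% Wilson intervals, and a count of 0 allows 3 counts. The overlap code found 200 of 200 overlaps planted among 5000 simulated peaks with 0 false ones, and the repeat search found 80 of 80 planted arrays and 0 of 20 random sequences.

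Named peaks are the 3 with the highest −log10 q among retained, lost and KO-only peaks. Named chromosomes have the most or fewest peaks or at least 5% of the KO peaks of the ends. Named genes are protein-coding with at least 1 KO or 3 WT peaks, and Zfp, Pcdh, Olfr and Vmn families were counted by symbol. Members, lists and rules were chosen with earlier results of these data known. Repeat blocks and their units were examined after the values were seen, as were chromosomes and positions named outside these rules. Tools were bedtools 2.31.1, matplotlib 3.10.9, pysam 0.24.0, scipy 1.17.1, pandas 2.3.3, numba 0.67.0 and numpy 2.4.6 under Python 3.11.15.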

Additional observations from a re-analysis of the deposited data

How the results depend on the processing

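No paired analysis was possible because WT and KO cells gave 1 H3K9me3 library apiece. The values were recomputed under 12 alternatives, of which 2 (without the first 250 kb and without chromosomes 4, 9, 11 and 17) were chosen after seeing the data. WT peaks outnumbered KO peaks in all 9 settings that recount them, both density ratios stayed above 1 in the settings that give one (the KO interval without the first 250 kb, 0.879 to 1.49, includes 1), and 46 values moved while 14 did not. Peaks with a −log10 q at or above the WT median of 3.04 gave 412 WT peaks, density ratios of 2.42 (WT) and 6.07 (KO) and 15.8% retained. A pileup of at least 15 gave 172 WT and 122 KO peaks, ratios of 6.74 and 13.4, 44.8% retained and 82.8% of KO peaks shared. Ends of 1 Mb gave 438 WT peaks, ratios of 2.56 and 5.44, 17.8% retained and 67.1% shared, and ends of 4 Mb gave 1086 WT peaks, ratios of 1.60 and 2.03 and 7.64% retained. Without chromosome 9 the KO ratio was 2.63, with 8.44% retained and 42.3% shared. Merging peaks within 1 kb gave 120 KO peaks, ratios of 1.72 and 2.36, 6.36% retained and 34.2% shared. A background of at most 1.5 fragments gave 66 KO peaks, ratios of 1.60 and 1.49, 0.212% retained and 1.52% shared. Against the next 5 Mb the WT ratio was 1.52. Requiring 50% of a peak to be covered gave 7.96% retained, and allowing 1 kb between peaks gave 19.8% retained and 65.8% shared. Without the first 250 kb there were 429 WT and 56 KO peaks, ratios of 1.43 and 1.14, 0.466% retained and 3.57% shared. Without chromosomes 4, 9, 11 and 17 there were 82 KO peaks, a KO ratio of 1.90 beside a WT ratio of 1.92, 3.16% retained and 19.5% shared. The overlap of the lists and the KO density of the ends therefore rest on the first 250 kb and on peaks of high local background. Beyond the settings' own construction the cause was not tested. Most peaks outside the arrays stand at pileups near the lowest value listed, so a peak missing from 1 list is not an absence of the mark.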

Other observations

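The proximal end of chromosome X, outside the autosomes counted above, had 57 WT peaks (32.6 per Mb) and 17 KO peaks (9.71 per Mb). Of these, 12 WT and 4 KO peaks lay in the first 250 kb, 1 peak of each list was shared, and none was tandem by the measure used for the autosomes. The WT background there reached 3.94 fragments.

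Sequence of the chromosome 9 array also lay under peaks on other chromosomes, which were looked up after the array was found. The WT peak on chromosome 12 at chr12:3109897-3110133 had a pileup of 140 over a background of 88.8, a fold enrichment of 1.57 and no KO peak, and it matched the majority unit of chromosome 9 at a median of 96.6% of bases on the minus strand. On chromosome 13, far from the end, the WT peak at chr13:77578201-77578325 and the KO peak at chr13:77578204-77578317 overlapped, with pileups of 140 and 130. In these, 51.6% and 53.6% of the 31-mers occur in the chromosome 9 array. Both WT peaks thus reached the same highest pileup as the chromosome 9 array, the former in a WT-only peak and the latter in a shared one.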
